A study of Mus musculus with 9 samples.

Results

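Hearts of mice that lack *miR-1-1*, 1 of the 2 mouse genes that give rise to the muscle microRNA *miR-1*, were compared with wild-type hearts, using the 3 arrays labelled as *miR-1-1* knockout (replicates 4 to 6) and the 3 labelled as wild-type (replicates 1 to 3), 6 of the 9 arrays of the study. The remaining 3 arrays are of hearts heterozygous for both *miR-1-1* and *miR-1-2*, and they served here to estimate the spread of each gene. All hearts were taken at postnatal day 2 from animals of a mixed 129 x C57BL/6 strain, and the labels name no treatment. In the null animals both copies of the *miR-1-1* precursor are replaced by a floxed *Neo* cassette with a pGK promoter, targeted in E14 embryonic stem cells, so the deletion is present in all tissues from the start of development, whereas *miR-1-2* is intact in both groups compared. The labels do not say how many hearts went into a sample or whether the pups were littermates, so each p measures the spread between these arrays, part of which may be technical.

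The *miR-1* family is transcribed together with *miR-133a* from paired clusters that are active in heart and skeletal muscle, and it limits the stability and translation of messenger RNAs with matching sites. Target choice rests mainly on the seed, bases 2 to 8 from the 5′ end. In the heart *miR-1* is best known for restraining growth, smooth muscle and conduction genes, and the intact gene encodes the same mature sequence as the deleted gene. The sequences below are shown because the deleted precursor carries the first of them on its 5′ arm, and because the second, from the skeletal muscle gene *Mir206*, has the same seed as the 3′ arm product *miR-1*. Both are mature sequences of RefSeq on assembly GRCm38.p6, with seeds in capitals, and lie at chr2:180389057-180389079 and chr1:20679055-20679076, each on the plus strand.
miR-1a-1-5p: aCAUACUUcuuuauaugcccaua
miR-206-3p: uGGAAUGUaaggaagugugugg

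Values are log2 expression levels per gene after RMA, so a difference of 1 is a 2-fold change, and levels of different genes are not compared because probes differ. Of 41345 probe sets 23521 carried 1 gene symbol, and these gave 22180 genes when the brightest probe set of each was kept. Array medians lay between 2.87 and 2.91, and correlations between null and wild-type arrays ran from 0.985 to 0.988, beside 0.986 to 0.988 within a genotype. Markers of heart muscle were bright in each of the 6 arrays, with *Myh6* (alpha myosin heavy chain) at 10.18 to 10.30, *Actc1* (cardiac actin) at 11.08 to 11.23 and *Tnnt2* (cardiac troponin T) at 11.39 to 11.54. Wild-type replicate 1 stood apart from the other 5 arrays. It carried *Xist* at 7.74 against 1.22 to 1.96 and lacked the Y-linked *Eif2s3y* (1.34 against 6.20 to 6.64), and no null array shared this pattern. It also held the airway genes *Scgb1a1* at 6.51 (1.61 to 2.39 in the others) and *Scgb3a2* at 5.46 (1.34 to 1.93), and the brown fat gene *Ucp1* at 4.95 (2.34 to 3.93). The values that turn on this array are given without it beside the results. The part of tissue beside the heart was not tested.

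The targeted cluster separated the genotypes at *Mir133a-2* and *Mir1a-1hg*. *Mir133a-2*, the precursor gene for *miR-133a* in the same cluster, read 5.63, 6.38 and 5.45 in the wild-type arrays and 4.51, 3.79 and 3.07 in the null arrays. Every null array was thus below every wild-type array, with means of 5.82 ± 0.50 and 3.79 ± 0.72 (SD, n = 3 each) and a log2 fold change of -2.03 (standard error 0.39, limma adjusted p = 0.533 over all genes). *Mir1a-1hg*, the host transcript of the cluster, went the other way, from 6.07, 5.82 and 5.62 to 7.22, 7.36 and 6.71, a 2.39-fold higher level in null hearts (log2 fold change 1.26, standard error 0.19, adjusted p = 0.432) without overlap of the arrays. A two-sided exact permutation test gave 0.1 for each gene, the lowest p that 3 against 3 arrays can reach. Left without wild-type replicate 2, *Mir133a-2* kept its direction but no longer met the study's thresholds.

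The *Mir1a-1* probe set itself was dim and did not check the deletion firmly, as its levels were 1.29, 1.85 and 2.21 in wild-type and 1.06, 0.95 and 1.29 in null hearts, with wild-type replicate 1 inside the range of the null arrays (log2 fold change -0.68, standard error 0.24, exact permutation p = 0.2). For comparison, the upper quartile of 1394 olfactory and vomeronasal receptor genes, which the heart is not known to use, was 1.74 in wild-type and 1.78 in null hearts. *Mir206* lay under that level in all 6 arrays, at 0.65 to 1.08. The cluster left intact showed no shift of comparable size. Its *miR-133a* precursor gene *Mir133a-1* had means of 5.96 ± 0.49 in wild-type and 5.79 ± 0.33 in null hearts (SD, n = 3 each; log2 fold change -0.17, standard error 0.25), and of the pair of probe sets annotated to *Mir1a-2* together with its antisense partner *Mir1b* the brighter was at 9.39 ± 0.14 and 9.42 ± 0.28. The array values do not separate these partners. The host gene *Mib1*, a ubiquitin ligase of Notch signalling, was at 5.85 in both. Genes on either side of the deleted cluster, from *Lama5* to *Dido1*, were also read. No protein-coding neighbour had a limma p under 0.05, with log2 fold changes of 0.0047 for *Gata5*, a heart transcription factor, and 0.22 for *Slco4a1*, a solute carrier, and the microRNA gene *Mir3091* was higher by 0.70 at that limit.

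**Figure D1:**
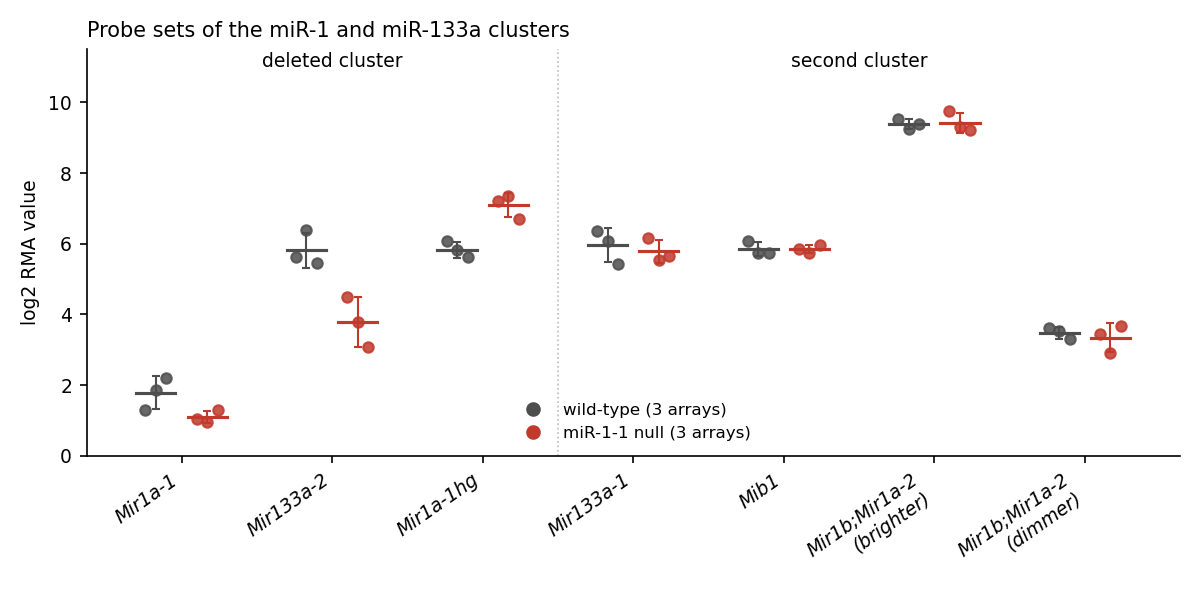
Log2 RMA value (vertical axis) of each probe set of the *miR-1* and *miR-133a* clusters in 3 wild-type arrays (grey) and 3 *miR-1-1* null arrays (red); each point is 1 array, the horizontal line is the group mean and the error bar the SD. *Mir133a-2* is lower and *Mir1a-1hg* higher in all 3 null arrays, and the probe sets of the second cluster overlap.

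The study's thresholds ask for an unadjusted p under 0.0025 together with a ratio of null to wild-type above 1.5 or below 0.5. By limma 18 genes met them as higher and 10 as lower in the null arrays, which is 0.0812% and 0.0451% of 22180 genes tested. At an adjusted p under 0.05 there were 0 with limma and 0 with an unmoderated per-gene test (smallest limma adjusted p = 0.0935, for *Gm10731* and *Mylk4*), beside 1268 genes, 5.72%, at an unadjusted limma p under 0.05. In what follows higher and lower without further words mean this unadjusted limit or the study's thresholds, since no gene passed the adjusted one. Gene lists were chosen with earlier results of these data known, so counts of their members are descriptions. At the unadjusted limit 570 genes were higher and 698 lower, which is 2.57% and 3.15%. The null arrays lay wholly above the wild-type arrays in 3.63% of genes and wholly below in 4.63%. The ratio limits are not symmetric, and with 1.5-fold in either direction 18 genes were higher and 26 lower. Left without wild-type replicate 1 the study's thresholds gave 26 higher and 22 lower genes, and without null replicate 6 they gave 37 and 9. With the *Eif2s3y* level as a covariate, a fit added after seeing the data, they gave 28 higher and 12 lower genes, 22 of which were among the 28 of the main count. Of the 28 genes, 8 passed whichever array was left out, namely *Mir1a-1hg*, *Myl9*, *Mpp7*, *Rpph1*, *Dcun1d3*, *Klra14-ps*, *Trim72* and *Gm10731*, and all 28 kept an unadjusted p under 0.05 in each of the 9 omissions. *Cnn1* left the thresholds without any one of replicates 2 to 7, *Ckmt2* without any one of replicates 1 to 7, *Xirp2* without replicate 1, 2, 5 or 6, *Mid1* without 1, 3, 4 or 5 and *Csf2rb* without 2, 3, 4 or 6.

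**Figure D2:**
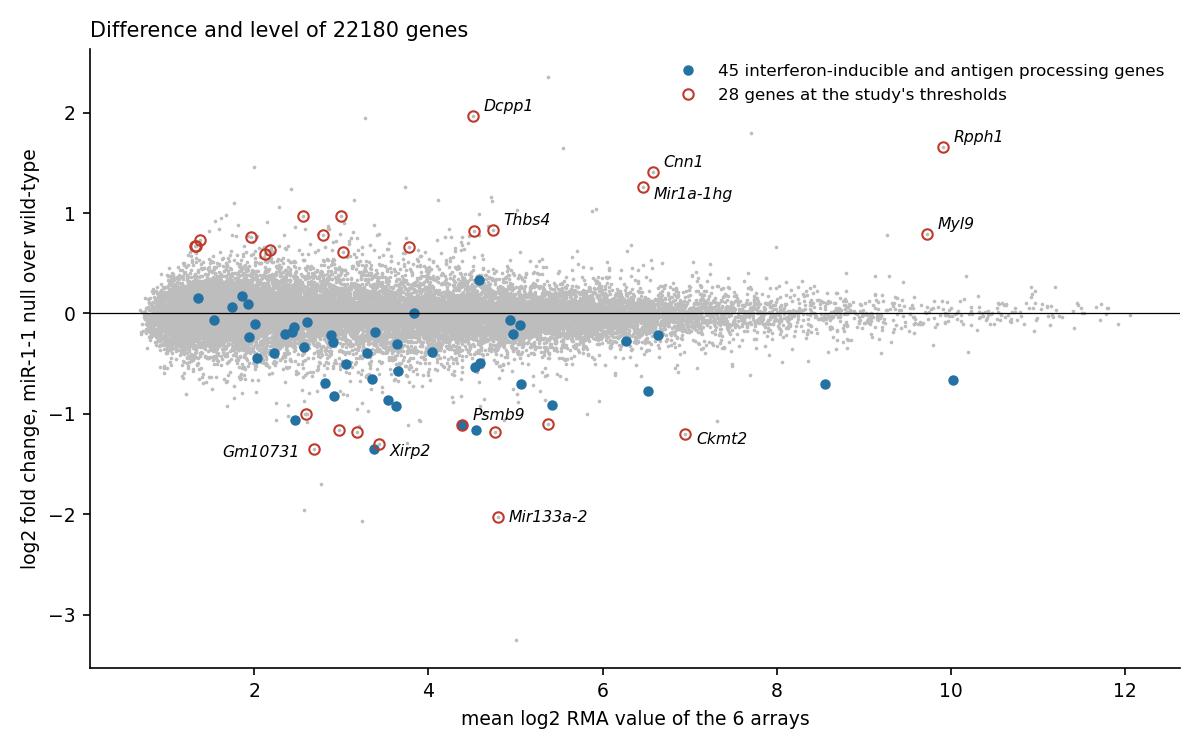
Log2 fold change of *miR-1-1* null over wild-type hearts (vertical axis) against the mean log2 RMA value of the 6 arrays (horizontal axis) for 22180 genes (grey points). Open red circles are the 28 genes at the study's thresholds, and blue points are the 45 measured interferon-inducible and antigen processing genes, 39 of which lie below 0.

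Past the thresholds on the higher side were the smooth muscle genes *Cnn1* and *Myl9*, and the larger part of the smooth muscle list did not move with them. *Cnn1*, calponin, an actin-binding regulator of smooth muscle contraction, read 6.55, 5.57 and 5.52 in wild-type and 7.07, 7.64 and 7.15 in null hearts. All null arrays were above the wild-type arrays, among which replicate 1 was highest, and the mean was 2.65-fold higher (log2 fold change 1.41, standard error 0.31, adjusted p = 0.63). *Myl9*, the regulatory myosin light chain of smooth muscle, moved from 9.27, 9.27 and 9.44 to 9.90, 10.25 and 10.20, 1.73-fold higher with no overlap (log2 fold change 0.79, standard error 0.14, adjusted p = 0.533). *Acta2*, smooth muscle actin, which the neonatal heart muscle also uses, was at 9.24, 9.02 and 8.36 against 9.59, 9.87 and 9.51, again without overlap but outside the study's thresholds (log2 fold change 0.78, standard error 0.22, adjusted p = 0.752).

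*Csrp1* and *Csrp2*, LIM proteins of the actin cytoskeleton, were higher by log2 differences of 0.42 and 0.39 (standard errors 0.14 and 0.12), with the null arrays above the wild-type arrays in each case. *Cald1*, caldesmon, which inhibits actomyosin, was lower by -0.35 on the same scale. In all, 5 of 27 measured members of the smooth muscle list were higher at an unadjusted p under 0.05 and 1 was lower, 18.5% and 3.70% of the list against 2.57% and 3.15% of all genes. Without wild-type replicate 1 there were 7 higher members, and with the *Eif2s3y* covariate 6. *Csrp1* lost this limit without replicate 2 or 4, and *Cald1* without 1, 4 or 5. The list had a median log2 fold change of 0.050, against -0.0066 over all genes, and became 0.11 when wild-type replicate 1 was left out and -0.0082 when replicate 2 was, while *Myh11*, the smooth muscle myosin heavy chain, stood at -0.076, and *Tagln*, transgelin, read 5.26, 4.54 and 4.34 against 4.95, 5.01 and 5.12 with overlapping arrays (log2 fold change 0.31, standard error 0.21).

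Many smooth muscle genes are known to carry a CArG box, the site of serum response factor (SRF), so RefSeq promoters from 250 bases before to 50 after the gene start were searched for it on both strands. The pattern was CCWWWWWWGG, where W is A or T, without mismatch. Sites with a mismatch and sites outside this window were not searched. A match was present in 1.63% of 32851 promoters, and in 4 of 26 promoters of the smooth muscle list, those of *Cnn2*, *Myl6*, *Myl9* and *Vcl*. Among the 4 higher members with a promoter in the table, *Myl9* alone held one. The promoters of *Myl9* (chr2:156775214-156775513, plus strand) and of *Cnn1* (chr9:22099003-22099302, plus strand), on GRCm38.p6, are shown as those of the members past the study's thresholds, with the CArG box in capitals and none of these letters in the *Cnn1* window.
Myl9: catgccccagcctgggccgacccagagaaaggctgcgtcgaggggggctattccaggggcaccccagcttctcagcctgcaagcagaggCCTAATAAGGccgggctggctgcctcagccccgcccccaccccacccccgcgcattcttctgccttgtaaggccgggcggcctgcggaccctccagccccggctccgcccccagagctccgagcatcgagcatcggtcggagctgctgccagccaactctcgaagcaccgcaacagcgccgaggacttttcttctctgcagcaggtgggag
Cnn1: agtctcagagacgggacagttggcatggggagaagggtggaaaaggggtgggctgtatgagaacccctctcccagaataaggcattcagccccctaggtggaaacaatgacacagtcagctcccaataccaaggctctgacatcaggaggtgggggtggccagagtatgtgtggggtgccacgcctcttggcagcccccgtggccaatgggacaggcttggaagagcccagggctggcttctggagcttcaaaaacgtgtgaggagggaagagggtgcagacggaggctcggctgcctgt

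Regulators of this programme gave small differences. *Srf* read 6.61, 6.73 and 6.19 in wild-type and 6.56, 6.17 and 6.36 in null hearts (log2 fold change -0.15, standard error 0.16), and *Myocd*, its coactivator myocardin, was at 8.00, 7.82 and 7.76 against 8.21, 7.96 and 8.17 (log2 fold change 0.25, standard error 0.12). Both sets of arrays overlapped. *Mylk*, which encodes smooth muscle myosin light chain kinase and also Telokin, was 3.55, 3.65 and 3.65 against 3.50, 3.49 and 3.50 on the log2 scale, a difference of -0.12 (standard error 0.080), and 1 value stands for all products of this gene. Of its relatives, *Mylk3*, the cardiac kinase, was at -0.038 (standard error 0.20), and *Mylk4*, a kinase of striated muscle, read 3.76, 3.58 and 3.62 against 2.70 in each null array. That is a 1.94-fold lower mean (limma adjusted p = 0.0935), a fold that the study's lower limit leaves out, and the equal null values narrow its estimated spread. *Fos* (0.18) and *Egr1* (0.055), immediate early targets of SRF, did not pass, and of 22 such genes 1 was higher, *Nr4a2* (0.34), and 0 were lower at an unadjusted p under 0.05. The 1 higher gene is 4.55% of the list, beside 2.57% of all genes.

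On the lower side, *Xirp2*, *Trim72* and *Ckmt2* of striated muscle met the study's thresholds. So did *Mid1*, from the list of muscle ubiquitin ligases and Trim genes. *Xirp2*, a Xin repeat protein that binds actin filaments at the intercalated disc, read 4.04, 4.26 and 3.95 in wild-type and 3.46, 2.51 and 2.37 in null hearts. The null arrays were all lower, by a mean of 2.47-fold (log2 fold change -1.30, standard error 0.26, adjusted p = 0.533). *Trim72*, which seals tears of the muscle membrane, moved from 3.80, 4.01 and 3.50 to 2.75, 2.25 and 2.76, 2.27-fold lower (adjusted p = 0.432), and *Ckmt2*, the creatine kinase of muscle mitochondria, from 7.45, 7.57 and 7.63 to 6.33, 6.18 and 6.54, 2.30-fold lower (adjusted p = 0.702). Neither showed any overlap.

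Other lower genes included *Nrap*, an actin-anchoring protein of forming myofibrils, at 7.78, 7.77 and 7.67 against 7.34, 7.04 and 7.34 (log2 fold change -0.50, standard error 0.11, adjusted p = 0.702), and *Twf2*, an actin-capping twinfilin, at 6.20, 6.49 and 6.48 against 5.48, 5.34 and 5.73 (log2 fold change -0.88, adjusted p = 0.533). *Twf1*, its relative and a reported *miR-1* target, was at 0.12 (standard error 0.17). Within the 42 sarcomere genes measured, 5 were lower and 1 was higher at an unadjusted p under 0.05, 11.9% and 2.38% of the list against 3.15% and 2.57% of all genes. The lower ones were *Xirp2*, *Ankrd23*, a titin-binding stretch sensor (-0.58), *Myom2*, an M-band protein (-0.52), *Myh7*, the slow myosin heavy chain (-1.07), and *Tcap*, a cap of titin (-0.32), and the higher one was *Myl7*, the atrial light chain (0.22). *Myh7* read 7.83, 8.18 and 7.55 against 7.62, 6.26 and 6.47, so null replicate 4 lay inside the wild-type range, and the gene lost the limit without replicate 2, 5 or 6. *Myl2*, the ventricular light chain, was at 0.013, *Myh6* at -0.0096, and the median of the list at -0.041 (-0.045 without wild-type replicate 1). The count of 5 lower members became 3 to 7 when an array was left out.

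Muscle ubiquitin ligases and Trim genes held the largest share of lower members after the interferon list described next, 7 of 23 at an unadjusted p under 0.05 with 1 higher, which is 30.4% and 4.35% of the list against 3.15% and 2.57% of all genes. Because the list was chosen with earlier results of these data known, these shares describe its members only. Of the 23 members 6 were above 0, against 48.0% of all genes, and 7 were lower at that limit. Beside *Trim72* these were *Mid1*, a ubiquitin ligase of the microtubule network, which read 6.25, 5.39 and 6.13 against 4.54, 4.88 and 5.05 without overlap (2.14-fold lower, adjusted p = 0.533), *Trim54*, a ligase bound to sarcomeres and microtubules (-0.90), *Fbxo40*, a muscle F-box protein (-0.37), *Asb5* (-0.60), *Kbtbd12* (-0.24) and *Klhl40*, which stabilises thin filament proteins (-0.53). *Trim55*, a sarcomeric ligase related to *Trim54*, went the other way, from 8.63, 8.85 and 8.30 to 9.06, 9.01 and 8.93 (log2 fold change 0.41, standard error 0.15, adjusted p = 0.871). The count of lower members was 5 to 7 when 1 array was left out at a time, with 5 without wild-type replicate 1, where the list median was -0.086 in place of -0.14.

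**Figure D3:**
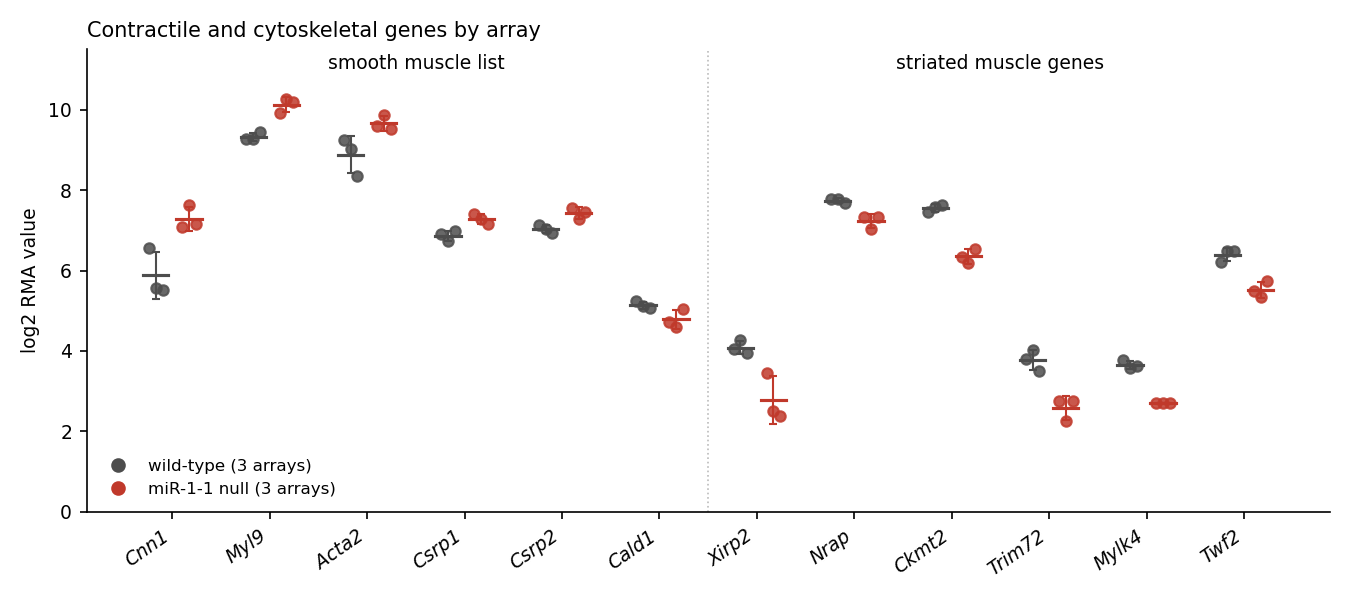
Log2 RMA value (vertical axis) of smooth muscle list members and of striated muscle or cytoskeletal genes. Points are 3 wild-type arrays (grey) and 3 *miR-1-1* null arrays (red), with the mean (line) and SD (error bar). *Cnn1*, *Myl9*, *Acta2*, *Csrp1* and *Csrp2* are higher in all 3 null arrays. *Cald1* and the 6 genes in the part labelled striated muscle, with the actin-capping *Twf2* among them, are lower in all 3.

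The widest shared shift among the lists was in genes that interferons induce and genes that process antigens for MHC class I. Interferons signal through Janus kinases to STAT proteins, which with IRF9 bind a response element in the promoters of their targets, and the products restrict viruses (guanylate-binding proteins, immunity-related GTPases, oligoadenylate synthetases) or cut and load peptides (immunoproteasome, *Tap1*, *B2m*). Of 45 measured members 22 were lower and 0 were higher at an unadjusted limma p under 0.05, which is 48.9% against 3.15% lower over all genes. Because the list was chosen with earlier results of these data known, this share describes its members only. The null arrays lay wholly below the wild-type arrays in 14 members and wholly above in 0, beside 4.63% and 3.63% of all genes. The median log2 fold change was -0.34, with 39 of 45 members below 0, where 48.0% of all genes were above 0.

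Among GTPases of the antiviral response, *Gbp7*, a guanylate-binding protein, read 3.59, 3.97 and 4.59 in wild-type and 3.24, 2.11 and 2.75 in null hearts. All null arrays were lower, by a mean of 2.55-fold (log2 fold change -1.35, standard error 0.33, adjusted p = 0.721). *Irgm2*, an immunity-related GTPase, moved from 3.57, 4.16 and 4.55 to 3.17, 2.96 and 3.37 (-0.92 ± 0.23, log2 fold change and standard error), and its relatives *Igtp* (-0.87), *Irgm1* (-0.82) and *Iigp1* (-1.16) were lower as well. *Isg15*, a ubiquitin-like modifier, read 3.32, 2.13 and 3.57 against 2.16, 1.69 and 1.97, so that wild-type replicate 2 lay within the null range (log2 fold change -1.06, standard error 0.32, adjusted p = 0.771). *Ifitm3*, which blocks viral entry, was bright and without overlap, at 8.58, 9.04 and 9.07 against 8.52, 7.92 and 8.15 (log2 fold change -0.70, standard error 0.19, adjusted p = 0.738).

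On the antigen processing side *Psmb9*, a catalytic subunit of the immunoproteasome, was the member past the study's thresholds, at 4.45, 5.05 and 5.32 against 4.21, 3.96 and 3.33, 2.15-fold lower with no overlap (adjusted p = 0.702), and with 1 array left out it met them only without replicate 1 or 4. *Psmb10*, another catalytic subunit, stood at -0.28, *Psme1*, an activator of the proteasome, at -0.22 and *Tap1*, the peptide transporter, at -0.49, each at an unadjusted p under 0.05. *B2m*, the light chain of MHC class I and bright in every array, read 10.04, 10.74 and 10.29 against 10.06, 9.51 and 9.51, where null replicate 4 reached the lowest wild-type value (log2 fold change -0.66, standard error 0.20, adjusted p = 0.795), and *H2-K1*, a class I heavy chain, was at 4.56, 4.98 and 4.88 against 4.49, 4.27 and 4.04 with no overlap (-0.54 on the log2 scale). Other lower members were *Xaf1* (-0.91), *Lgals3bp* (-0.77), *Bst2* (-0.71), *Rsad2* (-0.69), *Ifit1* (-0.65), *Irf9* (-0.57), *Oasl2* (-0.50), *Oas2* (-0.45) and *Mx2* (-0.40). *Irf1*, a regulator of these genes, was at -0.088 and did not pass.

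Within each genotype the arrays were spread along the same axis. The mean level over the 45 members was 3.73, 3.94 and 4.15 in wild-type replicates 1 to 3 and 3.66, 3.38 and 3.54 in null replicates 4 to 6, so the groups did not overlap but the gap between the nearest arrays was smaller than the range within the wild-type group. The double-heterozygous arrays, compared with the same wild-type arrays, had means of 3.47, 3.55 and 3.58. Left without wild-type replicate 3 the count of lower members was 10, without null replicate 5 it was 11, and without wild-type replicate 1 it was 24, and with the *Eif2s3y* covariate 23. The list median was -0.28, -0.30 and -0.45 for these 3 omissions in the same order. The interferon genes *Ifng* and *Ifnb1* were at background, at 1.40 to 1.54 and 0.80 to 1.22 in the 6 arrays, and other interferon genes were not read here.

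**Figure D4:**
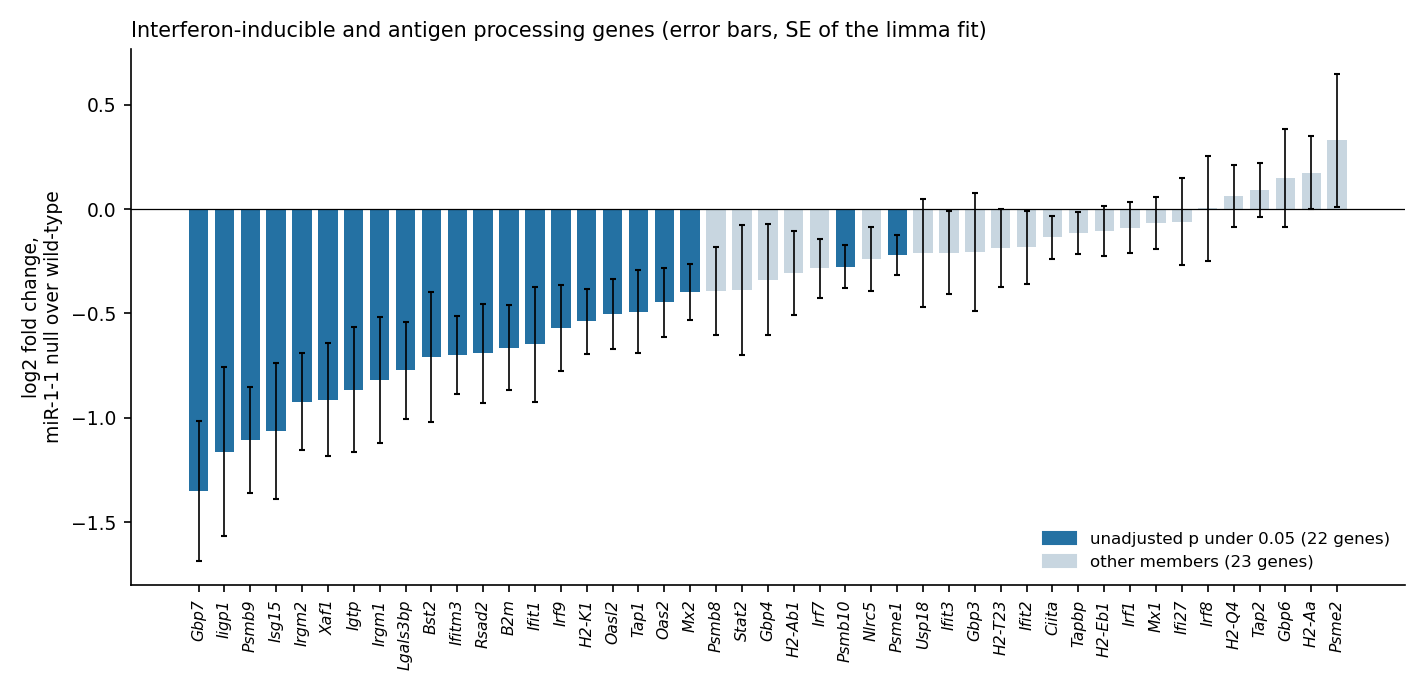
Log2 fold change of *miR-1-1* null over wild-type hearts (vertical axis) for each of the 45 measured interferon-inducible and antigen processing genes, ordered by value; bars start at 0 and error bars are the standard error of the limma fit. The 22 members at an unadjusted p under 0.05 (dark) are all lower.

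The promoters of the lower members were read for the interferon-stimulated response element (ISRE), searched as GAAANNGAAA or, on the other strand, TTTCNNTTTC. A match occurred in 3.44% of all 32851 promoters. Of the 22 lower members 19 had a promoter in the table and 11 of these held a match, and of the other 23 members 14 had a promoter and 4 held one. The list was drawn up from genes known to respond to interferon, so this is a description of the members and not a result of the comparison. The promoters of the 6 lower members with a match and the smallest p, chosen after their values were seen, are given with the matches in capitals, on GRCm38.p6. In *Isg15* 3 matches overlap in 1 stretch, and in *Ifitm3* both lie just after the start.
Gbp7, chr3:142530086-142530385, plus strand: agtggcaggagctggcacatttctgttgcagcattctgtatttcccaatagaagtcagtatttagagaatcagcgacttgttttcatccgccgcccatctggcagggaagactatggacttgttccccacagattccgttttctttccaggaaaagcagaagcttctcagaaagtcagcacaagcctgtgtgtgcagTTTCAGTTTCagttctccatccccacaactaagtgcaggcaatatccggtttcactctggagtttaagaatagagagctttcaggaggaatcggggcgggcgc
Irgm2, chr11:58214727-58215026, plus strand: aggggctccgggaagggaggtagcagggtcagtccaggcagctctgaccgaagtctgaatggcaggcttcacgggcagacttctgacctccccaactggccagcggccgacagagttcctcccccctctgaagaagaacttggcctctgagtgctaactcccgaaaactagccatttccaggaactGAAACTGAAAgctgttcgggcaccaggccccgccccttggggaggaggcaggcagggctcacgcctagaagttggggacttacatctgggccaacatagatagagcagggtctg
Ifitm3, chr7:141010695-141010994, minus strand: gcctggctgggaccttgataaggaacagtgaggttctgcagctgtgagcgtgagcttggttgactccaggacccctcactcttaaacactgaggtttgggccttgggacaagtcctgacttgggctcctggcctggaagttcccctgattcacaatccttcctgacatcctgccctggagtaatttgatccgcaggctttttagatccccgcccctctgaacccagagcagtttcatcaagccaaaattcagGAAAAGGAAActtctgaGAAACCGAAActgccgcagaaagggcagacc
Isg15, chr4:156200769-156201068, minus strand: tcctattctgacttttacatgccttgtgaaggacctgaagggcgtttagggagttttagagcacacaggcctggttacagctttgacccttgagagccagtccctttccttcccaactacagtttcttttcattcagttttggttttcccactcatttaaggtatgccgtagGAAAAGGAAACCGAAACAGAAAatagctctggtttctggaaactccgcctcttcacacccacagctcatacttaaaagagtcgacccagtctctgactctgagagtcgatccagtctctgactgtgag
B2m, chr2:122147437-122147736, plus strand: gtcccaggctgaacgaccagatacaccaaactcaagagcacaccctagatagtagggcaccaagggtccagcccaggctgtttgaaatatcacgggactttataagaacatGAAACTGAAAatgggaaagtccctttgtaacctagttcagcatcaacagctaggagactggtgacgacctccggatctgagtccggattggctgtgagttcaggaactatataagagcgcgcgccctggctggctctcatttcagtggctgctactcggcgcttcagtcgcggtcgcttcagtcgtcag
Rsad2, chr12:26456403-26456702, minus strand: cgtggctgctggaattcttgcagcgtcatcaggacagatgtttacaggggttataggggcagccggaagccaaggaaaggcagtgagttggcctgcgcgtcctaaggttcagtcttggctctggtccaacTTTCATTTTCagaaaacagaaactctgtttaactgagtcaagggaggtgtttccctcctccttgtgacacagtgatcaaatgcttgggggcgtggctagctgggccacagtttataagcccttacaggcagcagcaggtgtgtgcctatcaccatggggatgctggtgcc

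Chemokines and immune cell markers moved less. *Ccl2*, which draws in monocytes, read 5.03, 5.46 and 5.58 in wild-type and 3.95, 3.76 and 4.82 in null hearts. It was 2.27-fold lower without overlap (adjusted p = 0.702) and with 1 array left out met the thresholds only without replicate 6, and *Ccl7*, of the same gene cluster, was at 4.26, 4.97 and 4.83 against 3.65, 3.70 and 4.20 (log2 fold change -0.84, standard error 0.24). *Ccl9* (-0.50) and *Cxcl10*, itself induced by interferon (-0.50), were also lower at an unadjusted p under 0.05, *Ccl5* was higher (0.37), and 22 of 28 measured chemokines were below 0. Over all genes 48.0% were above 0. The 4 lower members are 14.3% of the list and the 1 higher member 3.57%, against 3.15% and 2.57% of all genes. The list had 4 to 10 lower members with an array left out, and its median of -0.12 was -0.16 without wild-type replicate 1.

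Of 35 macrophage and leukocyte genes 5 were lower and 1 was higher at the same limit, 14.3% and 2.86% of the list against 3.15% and 2.57% of all genes, with 1 to 6 lower when an array was left out. The list median was -0.035, and -0.16 without wild-type replicate 1, and the mean level of the list overlapped between the groups, at 3.43 to 3.72 in wild-type and 3.39 to 3.65 in null arrays. *Csf2rb*, a receptor subunit for growth factors of myeloid cells, was past the study's thresholds at 3.16, 3.77 and 3.73 against 2.34, 2.72 and 2.11 (2.24-fold lower), with *Mrc1* (-0.35), *Cx3cr1* (-0.44), *Cd52* (-0.59) and *Fcgr1* (-0.29) beside it. The 1 higher member also met the study's thresholds, so at that limit the list had 1 gene in each direction. General markers of the lineage did not pass, with log2 fold changes of -0.031 for *Csf1r*, -0.035 for *Ptprc*, -0.30 for *Adgre1*, -0.34 for *Cd68* and 0.11 for *Lyz2*. Whether fewer immune cells or less of these RNAs per cell were present cannot be told apart in whole hearts, and the part of cell composition in the interferon result was not tested.

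Mitochondrial and metabolic genes differed by small amounts. Of 34 genes of fatty acid uptake and oxidation 29 were below 0 (median -0.11 on the log2 scale), and 4 were lower (11.8%) and 0 higher at an unadjusted p under 0.05, among them *Acadm*, medium-chain acyl-CoA dehydrogenase, at 9.52, 9.43 and 9.40 against 9.21, 9.13 and 9.17 (-0.28 on the log2 scale) and *Ppargc1b*, a coactivator of mitochondrial genes (-0.41). The oxidative phosphorylation list had 73 members, of which 57 were below 0 and 16 above (median -0.057), where 48.0% of all genes were above 0. At the same limit 4 were lower and 2 higher, 5.48% and 2.74%, close to the 3.15% and 2.57% of all genes. The medians without wild-type replicate 1 were -0.084 and -0.059. Left without 1 array at a time, these lists had 1 to 5 and 2 to 5 lower members. Subunits of cytochrome oxidase differed in both directions. *Cox7a1*, the muscle form of its subunit, read 9.95, 9.90 and 9.99 against 9.63, 9.67 and 9.60 (log2 fold change -0.32, standard error 0.08, adjusted p = 0.723), whereas *Cox8a* (0.31) and *Cox6a1* (0.26), forms found in most tissues, were higher, all 3 without overlap of the arrays.

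For glucose use, *Slc2a1*, the glucose transporter of the fetal heart (0.36), *Pfkl*, the liver form of phosphofructokinase (0.43), and *Aldoc*, the brain form of aldolase (0.47), were higher, and *Hk2*, hexokinase of muscle (-0.34), and *Pdha1*, of pyruvate dehydrogenase (-0.26), were lower at an unadjusted p under 0.05, out of 29 genes measured. These are 10.3% and 6.90% of the list against 2.57% and 3.15% of all genes. Of the 29 genes 12 were above 0 and 17 below, with a median of -0.031. In the creatine kinase list of 16 genes 2 were lower at the same limit, *Ckmt2* and *Ampd3* (-0.36), and 0 were higher. The 2 lower members are 12.5% of the list against 3.15% of all genes, and 1 to 2 were lower with an array left out. Cell cycle genes depended on single arrays. Their median was -0.15, with 37 of 49 below 0 and 12 above, where 48.0% of all genes were above 0. But the median was -0.010 without wild-type replicate 3, -0.015 without null replicate 4 and -0.29 without wild-type replicate 2. At an unadjusted p under 0.05, 3 members were lower, namely *Rrm2*, of ribonucleotide reductase (-0.55), *Ccna2*, cyclin A2 (-0.51), and *Kif20a*, a mitotic kinesin (-0.38), which is 6.12% of the list against 3.15% of all genes, and 0 to 13 were lower with an array left out. *Ccnd1*, cyclin D1, was the 1 higher member (5.82, 6.11 and 6.05 against 6.29, 6.43 and 6.57), 2.04% of the list beside 2.57% of all genes.

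Atrial genes had a median of 0.20 on the log2 scale, the highest of the lists plotted, with 5 of 21 higher (unadjusted p under 0.05) and 1 lower, 23.8% and 4.76% against 2.57% and 3.15% of all genes. There were 3 higher members without wild-type replicate 2 or null replicate 6, and 4 without wild-type replicate 1, where the median was 0.15. *Pam*, the enzyme that amidates peptide hormones in atrial granules, read 9.01, 8.95 and 8.85 against 9.29, 9.30 and 9.34. The null arrays were all higher (log2 fold change 0.38, standard error 0.09, adjusted p = 0.723), as they were for *Clu*, the secreted chaperone clusterin, at 6.35, 6.33 and 6.18 against 6.72, 6.90 and 6.84 (0.53). *Angpt1*, an angiopoietin of the atrial wall (0.62), *Dkk3* (0.35) and *Myl7* were the others, and *Kcnj3*, a subunit of the acetylcholine-gated atrial potassium channel, was lower (-0.50). *Nppa*, the atrial natriuretic peptide, overlapped between the groups (10.63, 11.14 and 11.41 against 10.98, 11.40 and 11.59), and the sampling of atrial tissue per heart was not tested.

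Among heart transcription factors *Tbx20* was the 1 higher member of 30 (0.25), which is 3.33% of the list beside 2.57% of all genes. *Nkx2-5* (-0.052), *Gata4* (0.059), *Gata6* (0.13), *Hand2* (0.19) and *Irx5* (0.064) did not pass. *Gja1*, the main gap junction protein of the working heart and a reported target of *miR-1*, was at 8.83, 9.28 and 9.19 against 9.35, 9.54 and 9.54, without overlap (log2 fold change 0.38, standard error 0.13, adjusted p = 0.871). Of 31 reported *miR-1* targets 2 were higher, *Gja1* and the calcium-binding protein *Sri* (0.22), and 1 was lower, the transcription factor *Ets1* (-0.33), which is 6.45% and 3.23% of the list against 2.57% and 3.15% over all genes. Predicted consensus targets had 5 higher and 2 lower of 85 (median 0.0025), which is 5.88% and 2.35% of the list against the same 2.57% and 3.15%. Of 23 targets reported for *miR-133a* 0 were higher or lower.

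Markers of other cells of the heart moved in few members. Of 26 endothelial genes 1 was lower, *Cdh5*, the cadherin of endothelial junctions, at 8.92, 8.94 and 8.93 against 8.71, 8.54 and 8.79 (log2 fold change -0.25, standard error 0.09). Of 39 matrix and fibroblast genes *Thbs4* was higher and the collagen crosslinking enzymes *Loxl1* (-0.27) and *Loxl3* (-0.50) were lower. *Aldh1a1*, a retinoic acid enzyme, was the 1 lower member of 16 epicardial and mesothelial genes (-0.31), and 0 of 11 erythroid genes and 0 of 18 lung and thymus genes were higher or lower. The lower members are 3.85% of the endothelial, 5.13% of the matrix and 6.25% of the epicardial list, beside 3.15% of all genes. *Thbs4* is 2.56% of the matrix list, beside 2.57% of all genes higher.

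Lists for nerve and skeletal muscle had medians of 0.048 and 0.028, and 2 of 18 and 2 of 27 members were higher, 11.1% and 7.41% against 2.57% of all genes. Lower members numbered 0 and 1, which is 0% and 3.70% against 3.15% of all genes. *Sox10*, a factor of glia and neural crest, read 1.88, 1.87 and 1.70 in wild-type and 2.36, 2.20 and 2.40 in null hearts, and *Snap25*, a synaptic protein, was 0.35 higher on the log2 scale, out of 18 glial and neuronal genes. *Myod1*, the skeletal muscle determination factor, was at 2.96, 2.87 and 2.96 against 3.70, 3.40 and 3.21 (log2 fold change 0.50, standard error 0.12, adjusted p = 0.702), with *Atp2a1*, the calcium pump of fast muscle (0.33), beside it and *Myh8*, the perinatal myosin, lower (-0.56), among 27 skeletal muscle genes. All of these arrays were without overlap between the groups.

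**Figure D5:**
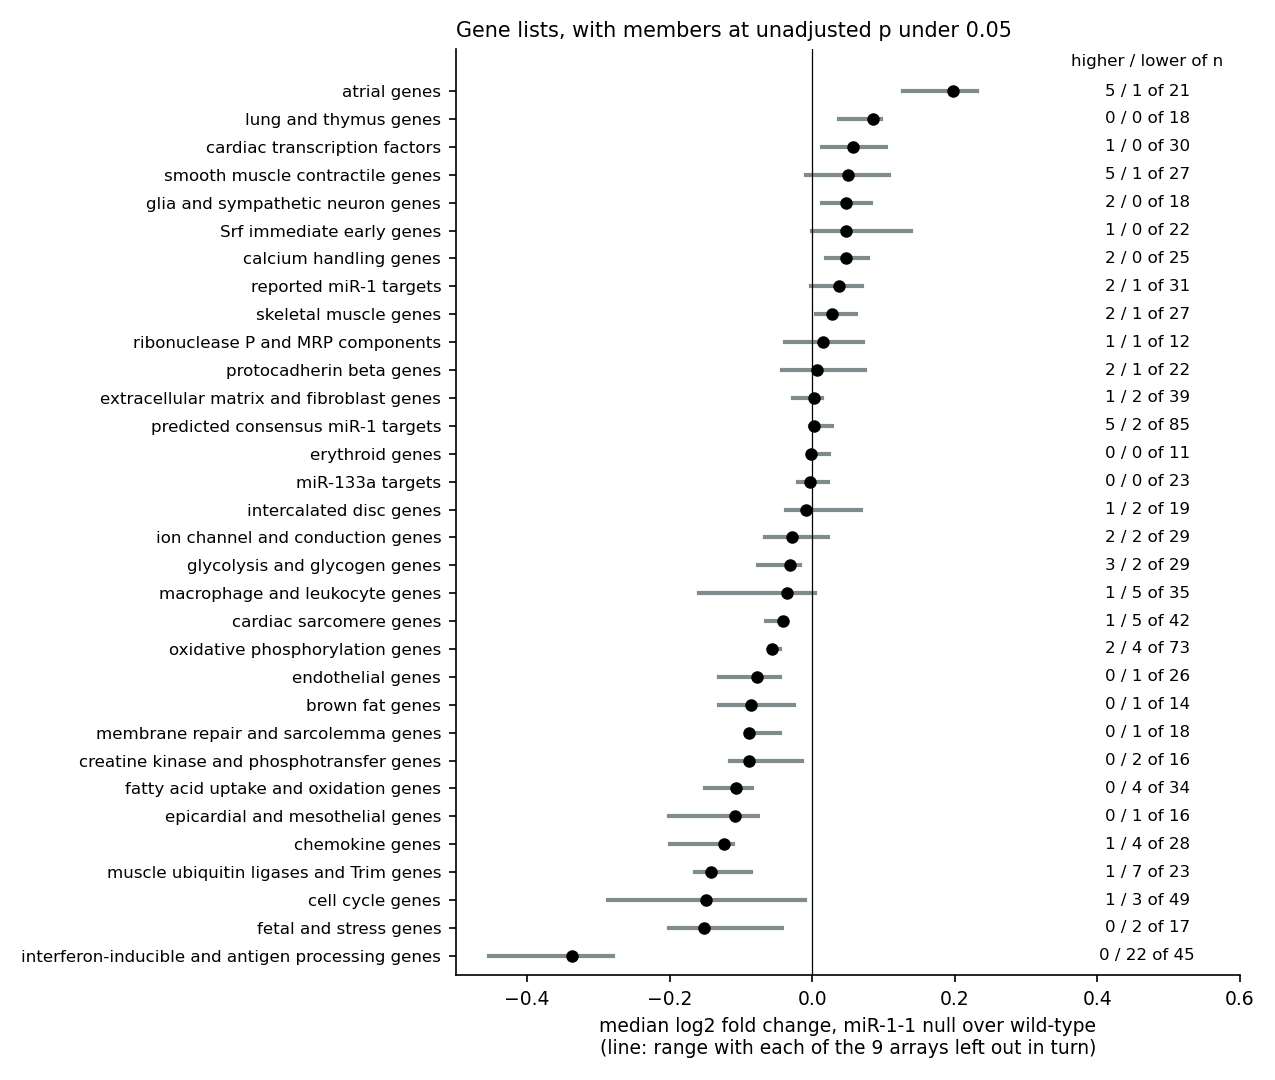
Median log2 fold change of *miR-1-1* null over wild-type hearts (points, horizontal axis) for each gene list, with the range over the 9 fits that each leave out 1 array (lines); at the right stand the members at an unadjusted limma p under 0.05, higher then lower, of those measured. The interferon-inducible list has the lowest median, -0.34, with its range from -0.45 to -0.28 below those of all other lists but the cell cycle list.

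Further genes met the study's thresholds. *Rpph1*, the RNA of ribonuclease P, which trims transfer RNA precursors, was bright and read 9.24, 9.38 and 8.61 in wild-type and 10.27, 11.01 and 10.92 in null hearts, 3.16-fold higher with no overlap (adjusted p = 0.432). Of the other 11 measured components of ribonuclease P and MRP, 1 was lower (*Pop5*, -0.31) and 0 were higher at an unadjusted p under 0.05. With *Rpph1* the list of 12 had 1 higher and 1 lower member, 8.33% each, against 2.57% and 3.15% of all genes. *Thbs4*, a matrix thrombospondin, was at 4.53, 4.15 and 4.28 against 4.99, 4.96 and 5.51 (1.78-fold higher), and *Crh*, corticotropin-releasing hormone, was 1.76-fold higher. *Tpsab1*, of the mast cell tryptases and listed by RefSeq as a transcribed pseudogene, was 1.96-fold higher.

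*Dcpp1*, a secreted protein of salivary gland, was the most raised gene past the thresholds, at 3.19, 3.87 and 3.54 against 4.85, 6.44 and 5.21 (3.91-fold, adjusted p = 0.533), and its near-identical family members may share probes. *Mpp7*, a scaffold of cell junctions (1.58-fold), *Dcun1d3*, a regulator of cullin neddylation (1.72-fold), *Pcdhb6*, a protocadherin (1.53-fold), *Fthl17f* (1.96-fold), *Tmem139* (1.51-fold), *Lyz1* (1.69-fold, with 3 equal null values of 2.34, which narrow its estimated spread) and *Morn5* (1.59-fold) were higher, as were the olfactory receptor *Olfr120* (1.59-fold), the pseudogene *Klra14-ps* (1.66-fold) and the noncoding *4930556J02Rik* (1.55-fold). On the lower side the small nucleolar RNA *Snord61* was at 2.72, 3.37 and 3.21 against 2.45, 1.64 and 2.19 and *Gm10731*, a transcribed pseudogene, had the smallest p of all genes, at 3.36, 3.42 and 3.31 against 1.99, 1.90 and 2.15. Of the 28 genes, 3 were under the level of the receptor genes named above in both groups, namely *Klra14-ps*, *Morn5* and *Olfr120*.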

How the data were processed

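RNA from hearts at postnatal day 2 was extracted with TRIzol, amplified with a NuGen Ovation kit and hybridised to Affymetrix mouse gene arrays. The authors summarised and normalised the arrays by RMA (the submitters' processing notes name Affymetrix Power Tools 1.12.0) and deposited log2 values per probe set; the genome build of the probe annotation was not stated. No counts underlie these values, so precision rests on 3 arrays per genotype. Of 41345 probe sets, 23521 had 1 gene symbol, 1820 had several entries and 16004 had none. Symbols of 23328 probe sets were matched to RefSeq by ID. Each gene was represented by its brightest probe set (mean of the 9 arrays), without a filter on dim genes.

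The 9 arrays were fitted together, with a coefficient for each genotype, in limma 3.58.1 in R 4.3.3 (lmFit, eBayes), and the contrast null minus wild-type was tested with Benjamini-Hochberg adjustment over 22180 genes. The fit was also run on simulated arrays with known changes, drawn with normal noise of the spread estimated from these data. Exact permutation tests were run for the probe sets of the clusters. Tables and figures were made with Python 3.11.15, pandas 2.3.3 and matplotlib 3.10.9. Named genes are the probe sets of the clusters, genes at the study's thresholds or their symmetric form, up to 6 members per list by smallest p, genes discussed by the study, and tissue markers; further list members at an unadjusted p under 0.05, and *Gm10731*, *Olfr120*, *Klra14-ps*, *Snord61*, *4930556J02Rik* and *Mir3091*, were named after their values were seen. The members and gene lists were chosen with earlier results of these data known. Alternatives changed the arrays fitted, the variance moderation, the test, the normalization, the probe set rule, the filter and the thresholds.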

Additional observations from a re-analysis of the deposited data

Results flagged for a closer look

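Signal also appeared in probe sets that the gene comparison did not use. When the 17824 probe sets outside the gene table were fitted together with the genes, 40004 features in all, 62 of them met the study's thresholds, 38 higher and 24 lower, and 59 of the 62 carry no gene symbol. The 62 are 0.348% of these probe sets against 0.126% of genes. At an adjusted limma p under 0.05 there were 3, each without a symbol. Probe set 17549150 read 2.55, 2.77 and 2.71 in wild-type and 7.36, 7.73 and 7.10 in null hearts (log2 fold change 4.72, limma adjusted p = 0.00022), and probe set 17549062 read 2.93, 3.04 and 2.62 against 7.31, 7.37 and 6.75 (4.28, limma adjusted p = 0.00041). Double-heterozygous arrays lay at 7.31 to 7.78 and 7.07 to 7.48 for this pair, and neither kind of array overlapped the wild-type arrays. Probe set 17201255 was dimmer, at 1.36, 1.15 and 1.33 against 2.47, 2.39 and 2.47 (1.16, limma adjusted p = 0.038), and the double-heterozygous arrays lay near the wild-type arrays at 1.56, 1.31 and 1.47. What these probe sets measure was not tested.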

How the results depend on the processing

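The 28 genes at the study's thresholds became 5 with an unmoderated per-gene test on the 6 arrays, 17 among genes at or above the median level, 44 with 1.5-fold in either direction and 54 at an unadjusted limma p under 0.01. Leaving out 1 array gave 24 to 48. The count at an adjusted p under 0.05 was 0, with 0 to 1 when an array was left out. The 2 cluster probe sets at the thresholds, *Mir133a-2* and *Mir1a-1hg*, became 0 with the unmoderated test and 1 to 2 with an array left out. Over the same omissions the interferon list had 10 to 24 lower members, the smooth muscle list 4 to 7 higher, the ubiquitin ligase list 5 to 7 lower and the atrial list 3 to 5 higher. With the *Eif2s3y* level as a covariate the thresholds gave 40 genes and the interferon list 23 lower members. The cause of these shifts was not tested, beyond the fewer genes or arrays that a setting uses.

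*Mir133a-1* ranged from -0.44 to 0.031 (log2) over the omissions. *Mib1*, near 0, ranged from -0.064 to 0.11 and changed sign with quantile normalization (0.018), cyclic loess (0.0095) and the *Eif2s3y* level as a covariate (0.028), the latter pair chosen after seeing the data. Of the settings tried on 142 gene results, 2477 kept direction and side of the threshold, 327 lost the threshold and 6 changed sign. The filter on the median level gave no value for the clusters, since not all of their probe sets pass it. No paired analysis was possible because the labels number the arrays without sharing a number between genotypes. Dim probe sets such as *Mir1a-1* limit what can be read at the deleted gene.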
